A study of Mus musculus with 45 samples.

Results

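The 10 genes described here encode 9 DNA-binding transcription factors and 1 inhibitor of such factors, all of them associated with naive and memory T cells. They are Tcf7, Lef1, Satb1, Bach2, Foxp1, Id3, Klf2, Klf3, Ets1 and Myb. They were chosen by name, with earlier results of these data known, and each matched a row of the deposited count table, which lists 23420 genes. The shares over all genes given below are therefore a scale and not a test of the set. All 10 passed the filter on low counts, which kept 14668 genes.

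The study sequenced RNA from T cells sorted out of B16 tumours, which are transplanted mouse melanomas, and out of non-draining lymph nodes (label NDLN). Regulatory T cells (Tregs, label Treg) are CD4 T cells that hold back immune responses, and they gave 8 of the 9 groups, 4 from each tissue. The genotype labels of these groups are WT for wild-type mice, Het_WT for Nrp1-sufficient cells of heterozygous mice (HetWT below) and Het_Nrp1- for Nrp1-deficient cells of heterozygous mice (HetNrp1def below). The fourth genotype, N, has titles of its own but also carries the label Het_Nrp1-, and the design text names homozygous Nrp1-deficient mice besides heterozygous ones. The 9th group was effector T cells (label Teffector), sorted from tumours of WT mice. Nrp1 encodes neuropilin-1, a membrane co-receptor. The sources used here do not give the driver of the Nrp1 deletion, the ages of the mice or the sort markers. The protocol, which the labels repeat for the effector samples, states 5000 Tregs sorted singly or doubly, and the replicate labels 2, 3, 4, ds1 and ds2 were read as 3 single and 2 double sorts from their names and numbers.

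Each group held 5 libraries, with 2945638 to 35787148 counts per library and a median of 10248080. The 9 ds2 libraries were the shallowest, at 2945638 to 5408375 counts. In each of the 4 heterozygous groups, 1 pair of libraries differed by little more than sampling noise (chi-square per degree of freedom 2.42 to 2.75, against 68.4 or more for the other 86 pairs within groups). Each such pair was summed and counted as 1 sample with the number 4, which left 41 samples, 4 in each heterozygous group and 5 in each other group. The pair was 3 and 4 in the heterozygous lymph node groups and ds1 and 4 in the heterozygous tumour groups. Number 4 of those tumour groups thus holds a ds1 library too, although ds1 was read as a double and 4 as a single sort. Levels are given as CPM, the usual counts scaled to library size, here with edgeR's TMM factors (0.552 to 1.22) applied. Summed CPM of the 6 T cell markers overlapped between lymph node Tregs (4055 to 9179), tumour Tregs (4590 to 8315) and effector T cells (4612 to 8387). Ikzf2 and Il2ra, which mark Tregs, had medians of 977 and 589 CPM in lymph node Tregs, 1129 and 564 in tumour Tregs, and 14.7 and 3.15 in effector cells, while Foxp3 itself was low everywhere (medians 3.80, 17.8 and 0.0807). Together with Ctla4 and Tnfrsf18, the 5 Treg markers summed to 1854 to 4918 CPM in lymph node Tregs (median 2520). The sum was 3550 to 9491 CPM in tumour Tregs (median 5461) and 108 to 278 CPM in effector cells (median 191). Of the 5, 2 were called higher in tumour Tregs over the mean of the 4 genotypes (edgeR test below). The labels do not tie replicates to different mice. All p-values below therefore reflect spread among samples that could be technical repeats.

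TCF-1 (from Tcf7), LEF-1, BACH2, FOXP1 and KLF2 are known as factors of the resting state: they hold T cells in quiescence, keep the genes for lymph node homing on and restrain effector differentiation. T cells that are activated by antigen and become effectors lower many of them. In Tregs the same factors mark the resting cells of lymphoid organs, while Tregs in tissues and tumours tend to be of the activated kind.

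Tumour Tregs held less RNA of 8 of the 10 genes than lymph node Tregs when the 4 genotypes were averaged. The log2 fold change (tumour over lymph node, with its standard error, SE) was -4.51 ± 0.44 for Id3, -3.20 ± 0.43 for Bach2, -2.37 ± 0.24 for Tcf7, -2.35 ± 0.21 for Foxp1, -1.94 ± 0.27 for Lef1, -1.84 ± 0.26 for Klf2, -1.63 ± 0.38 for Klf3 and -1.30 ± 0.20 for Satb1. Adjusted p from edgeR's quasi-likelihood test with Benjamini-Hochberg adjustment (the edgeR test below) ran from 2.1e-12 for Foxp1 to 0.00249 for Klf3. Ets1 (-0.21 ± 0.14, adjusted p = 0.373) and Myb (-0.51 ± 0.36, adjusted p = 0.442) did not pass the threshold of 0.05. In this comparison 11.2% of all genes tested were called, 5.37% as lower and 5.84% as higher, and the median over all genes was -0.08 against -1.89 over the 10. Fewer cells of a type and less RNA per cell cannot be told apart in such bulk samples.

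The ranges of 3 of the 10 genes did not overlap between the tissues: every one of the 18 tumour Treg samples lay below every one of the 18 lymph node Treg samples for Tcf7, Foxp1 and Id3. Over all genes tested, 0.0886% (13 genes) were lower without overlap in this way. For Lef1 and Klf2, 15 of the 18 tumour samples lay below the lowest lymph node sample. For Satb1 none did, because 1 lymph node sample (HetNrp1def ds1) had 55.9 CPM, below all tumour samples. That sample also had the lowest TMM factor (0.552).

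**Figure D1:**
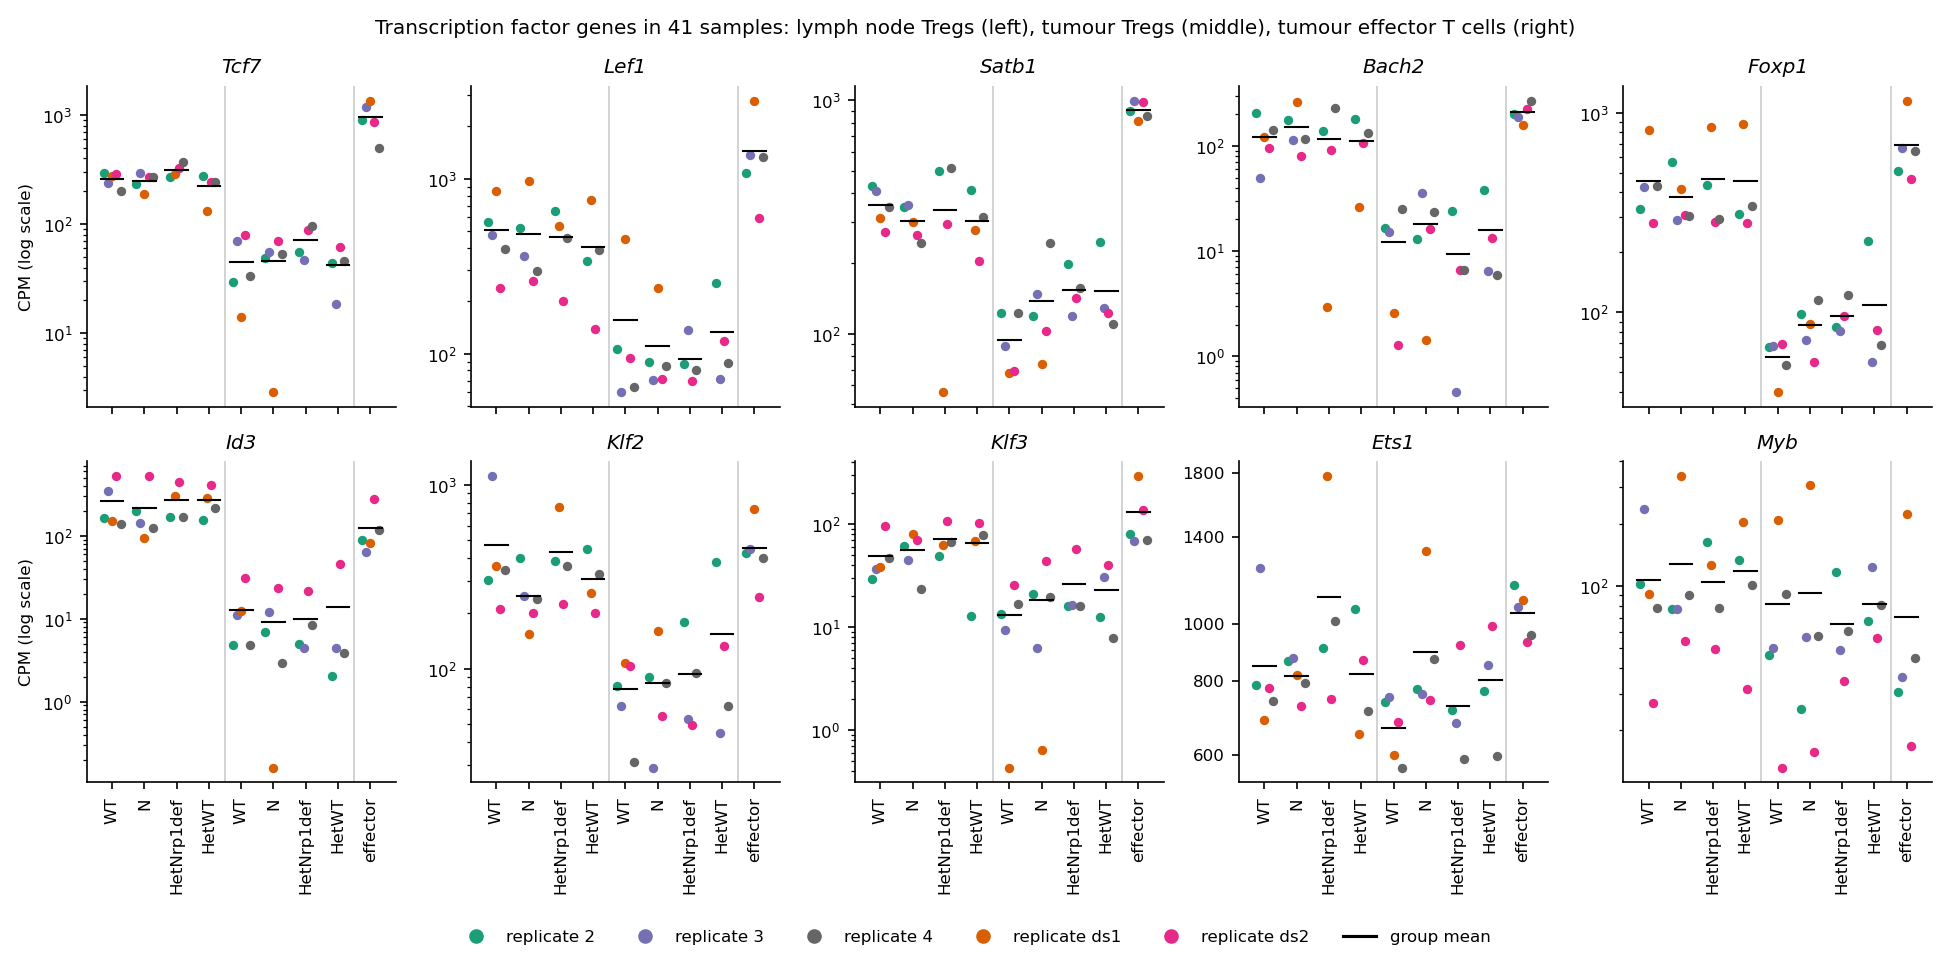
CPM of each of the 10 genes (log axis, with a different range in each panel) in every sample, by group; points are samples coloured by replicate number and black bars are group means. Tcf7, Foxp1 and Id3 are lower in all 18 tumour Treg samples than in all 18 lymph node Treg samples. For Tcf7 and Satb1 every effector sample lies above every Treg sample.

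The promoters of Klf2 and Bach2, which fell in tumour Tregs, and of Myb, which did not pass the test, are shown because each gene has a single start site in RefSeq and a window before it with no annotated exon. Each window runs from 250 to 30 bases before the RefSeq start (221 bases, build GRCm38.p6, which is mm10), written 5′ to 3′ on the gene's strand. Capitals mark every match, on either strand, to CACCC (the KLF box), CTTTG (the core bound by TCF-1 and LEF-1) or GGGCGG (the GC box). The windows lie at chr8:72318812-72319032 (plus strand, Klf2), chr4:32417185-32417405 (plus strand, Bach2) and chr10:21161014-21161234 (minus strand, Myb). The Bach2 window lies in an intron of the longer GENCODE gene.
Klf2: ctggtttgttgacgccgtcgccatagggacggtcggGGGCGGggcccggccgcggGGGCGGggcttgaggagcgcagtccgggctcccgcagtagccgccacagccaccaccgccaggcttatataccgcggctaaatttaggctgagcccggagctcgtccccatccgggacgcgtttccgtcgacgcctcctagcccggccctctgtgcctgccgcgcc
Bach2: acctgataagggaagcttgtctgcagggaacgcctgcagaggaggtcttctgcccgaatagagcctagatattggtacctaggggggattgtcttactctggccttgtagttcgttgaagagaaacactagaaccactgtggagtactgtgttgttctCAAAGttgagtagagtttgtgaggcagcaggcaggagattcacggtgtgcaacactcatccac
Myb: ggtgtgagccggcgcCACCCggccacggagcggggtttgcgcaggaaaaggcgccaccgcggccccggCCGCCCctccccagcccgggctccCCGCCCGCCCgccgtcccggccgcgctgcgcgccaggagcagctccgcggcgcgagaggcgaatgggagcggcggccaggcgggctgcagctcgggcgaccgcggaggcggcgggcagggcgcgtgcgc
The Klf2 window holds 2 GC boxes. The Bach2 window holds 1 CTTTG core on the minus strand of the gene. The Myb window holds 1 CACCC and 3 GC boxes, of which 2 overlap. Of the 32851 promoter windows of this length in the RefSeq table, 48.0% hold CACCC, 45.1% CTTTG and 28.7% GGGCGG, so each motif is common. A match is a run of letters and says nothing about binding.

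Tcf7 (chr11:52252371-52283014, minus strand, mm10) encodes TCF-1, a DNA-binding HMG box protein that acts with beta-catenin and keeps T cells self-renewing. WT lymph node Tregs had 291, 240.2, 276, 288 and 201 CPM (replicates 2, 3, ds1, ds2 and 4, an order kept below). WT tumour Tregs had 29.4, 69.6, 14.1, 80.2 and 33.6 CPM. The ranges lie far apart, and the difference within every replicate number has the same sign (5 of 5). The WT difference was -2.51 ± 0.46, or 5.71-fold lower (edgeR test, adjusted p = 0.000778). The other 3 genotypes had 132 to 371 CPM in the lymph node and 2.86 to 96.9 in the tumour, and the gene was called in each: -2.45 ± 0.46 in N, -2.41 ± 0.51 in HetWT and -2.12 ± 0.50 in HetNrp1def. With 1 sample left out, the HetWT call was lost without lymph node 2, ds2 or 4 or tumour 2, 3 or 4 (edgeR adjusted p 0.0618 to 0.16), and the HetNrp1def call without lymph node 2, ds2 or 4 or any tumour sample (0.0806 to 0.202).

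Lef1 (chr3:131110471-131224356, plus strand) encodes LEF-1, the partner of TCF-1 with the same DNA-binding domain. In WT lymph node Tregs it measured 564, 477, 852, 236 and 397 CPM. In WT tumour Tregs it measured 106, 59.9, 452, 94.4 and 64.1 CPM, and the ds1 sample is the one that reaches into the lymph node range. The WT difference of -1.70 ± 0.50 missed the threshold (edgeR test, adjusted p = 0.0927). Without tumour ds1 it was -2.62 (adjusted p = 0.00128), and without lymph node 4 it was -1.89 (adjusted p = 0.0276). Lef1 was called in N (-2.12 ± 0.51, adjusted p = 0.0218) and in HetNrp1def (-2.31 ± 0.57, adjusted p = 0.0356), but not in HetWT (-1.61 ± 0.56, adjusted p = 0.322). The N call was lost without lymph node 2 or ds1 or tumour ds2 or 4 (adjusted p 0.0567 to 0.129), and the HetNrp1def call without lymph node 2 or ds1 or tumour 2, ds2 or 4 (0.0563 to 0.159). A fit with a term for the replicate number (the replicate block) called Lef1 in WT.

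Satb1 (chr17:51736187-51833290, minus strand) encodes a chromatin organiser that folds loci for T cell gene expression and is needed for Treg development. Its WT lymph node levels were 429, 409.6, 314, 274 and 349.8 CPM, and its WT tumour levels were 123, 88.7, 67.4, 69.0 and 122 CPM. All 5 tumour samples lay under all 5 lymph node samples. The difference was -1.92 ± 0.38, or 3.78-fold lower (edgeR test, adjusted p = 0.00184). The same contrast gave -1.14 ± 0.37 in N, -1.14 ± 0.41 in HetNrp1def and -0.99 ± 0.41 in HetWT, none of which was called (adjusted p 0.163, 0.223 and 0.473). With all ds2 samples left out, the WT adjusted p was 0.058. The replicate block called Satb1 in N.

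Bach2 (chr4:32238804-32586108, plus strand) encodes a repressor that competes with AP-1 at effector genes and protects naive and resting regulatory cells. WT lymph node Tregs had 204, 49.1, 123, 96.0 and 142 CPM. WT tumour Tregs had 16.6, 15.2, 2.56, 1.27 and 25.3 CPM, with 6 reads at the least. The groups do not overlap, although the levels within each spread widely. The difference was -3.32 ± 0.81, or 9.98-fold lower (edgeR test, adjusted p = 0.0266). That call did not hold without WT lymph node 2, ds1 or 4, or without WT tumour 2, 3, ds1 or ds2 (adjusted p 0.0522 to 0.0867). Bach2 was also called in HetNrp1def (-3.63 ± 0.92, adjusted p = 0.0448), where the call was lost without lymph node 2, ds2 or 4 or tumour 3, ds2 or 4 (adjusted p 0.0771 to 0.23) and the difference was -4.73 without tumour 2. In HetNrp1def the groups overlapped: lymph node ds1 had 2.93 CPM (13 reads), within the tumour range of 0.452 to 24.0 CPM. Bach2 narrowly missed the threshold in N (-3.05 ± 0.80, adjusted p = 0.0504) and was not called in HetWT (-2.81 ± 0.89, adjusted p = 0.248, and -3.70 without tumour 2). The replicate block called it in N.

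Foxp1 (chr6:98925338-99522721, minus strand) encodes a forkhead repressor that enforces quiescence in naive T cells. Lymph node WT samples measured 330.2, 423, 824, 281 and 427 CPM, and tumour WT samples 66.9, 67.9, 39.7, 69.4 and 54.5 CPM. The tumour samples are tight and the lymph node group is spread by its ds1 sample. Of the 10 genes, Foxp1 had the smallest WT adjusted p (6.48e-06 by the edgeR test), with a difference of -2.94 ± 0.41, or 7.66-fold lower. It was called in N (-2.14 ± 0.40), HetNrp1def (-2.28 ± 0.45) and HetWT (-2.06 ± 0.44) too. Without HetWT lymph node ds1, or HetWT tumour 3, ds2 or 4, the HetWT call was lost (adjusted p 0.0876 to 0.259), and without HetNrp1def lymph node ds1 the HetNrp1def call was lost (adjusted p = 0.0502).

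Id3 (chr4:136143497-136145755, plus strand) encodes an inhibitor that binds E proteins and keeps them off DNA, and it is high in naive and memory cells. Its WT lymph node levels were 163, 347, 152, 523 and 137 CPM. Its WT tumour levels were 4.78, 10.9, 12.4, 31.2 and 4.76 CPM, all far under the lymph node range. The fold was the largest of the 10 genes in each of the 4 genotypes: 20.8 in WT, 23.9 in N, 28.1 in HetNrp1def and 19.4 in HetWT. All 4 passed the edgeR test (adjusted p 0.00143, 0.00125, 0.00401 and 0.0166), and the HetWT call was lost without HetWT lymph node ds2 or HetWT tumour 2, 3 or 4 (adjusted p 0.0865 to 0.144). The ds2 samples moved the value most: without tumour ds2 the difference was -5.02 in WT, -5.27 in N and -6.12 in HetWT, and without lymph node ds2 it was -3.95 in N. Id2, which encodes a second inhibitor of E proteins, rose in WT tumour Tregs, from 108 ± 48.3 CPM (SD, n = 5) to 899 ± 450.2 CPM (n = 5), a log2 fold change of 3.05 ± 0.47 (edgeR test, adjusted p = 3.69e-05).

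Klf2 (chr8:72319033-72321656, plus strand) encodes a zinc finger activator of S1pr1, the gene of the receptor for exit from lymph nodes. WT lymph node samples had 302, 1119, 363, 213 and 346 CPM, and WT tumour samples 80.5, 63.0, 108, 104 and 31.0 CPM. Replicate 3 stands apart as the highest lymph node sample, and the groups do not overlap. The difference was -2.60 ± 0.51, or 6.07-fold lower (edgeR test, adjusted p = 0.00169), and it was -1.96 (adjusted p = 0.0436) without lymph node 3. Klf2 was called in HetNrp1def (-2.20 ± 0.56, adjusted p = 0.0414; lost without lymph node 2, ds1 or 4 or tumour 3, ds2 or 4, at 0.0809 to 0.267) and not in N (-1.58 ± 0.49, adjusted p = 0.138) or HetWT (-0.99 ± 0.54, adjusted p = 0.666). In the HetWT tumour group, replicate 2 had 379 CPM and the others 44.6 to 133 CPM, and without it the HetWT difference was -1.86 (adjusted p = 0.21). The replicate block called Klf2 in N.

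Klf3 (chr5:64803388-64832901, plus strand) encodes a related zinc finger repressor, whose targets in lymphocytes overlap those of KLF2. It measured 29.0, 36.2, 38.4, 95.7 and 46.4 CPM in WT lymph node Tregs and 13.3, 9.24, 0.427, 25.2 and 16.7 CPM in WT tumour Tregs, where the ds1 value stands on 2 reads. Klf3 passed the test in no single genotype (differences of -1.92 to -1.44, adjusted p 0.272 to 0.652), and passed it over the mean of the 4. In N the difference was -2.22 without tumour ds2. The 18 tumour Treg samples reached from 0.427 to 56.8 CPM and the 18 lymph node samples from 12.6 to 108 CPM.

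Ets1 (chr9:32636221-32757820, plus strand) encodes a winged helix factor that T cells express throughout their life. Lymph node WT samples had 787, 1241, 688, 778 and 740.4 CPM, and tumour WT samples 736, 750.2, 598, 680.5 and 569.9 CPM. The ranges overlap, and the WT difference was -0.34 ± 0.26 (95% interval -0.86 to 0.17, edgeR test, adjusted p = 0.715). Over the mean of the 4 genotypes the interval was -0.49 to 0.06. Across all 41 samples Ets1 kept within 570 to 1778 CPM.

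Myb (chr10:21124935-21160984, minus strand) encodes c-Myb, a factor of progenitors that is also needed for effector Treg differentiation. WT lymph node samples had 102, 235, 91.2, 27.0 and 77.9 CPM, and WT tumour samples 46.4, 49.8, 209, 13.2 and 91.6 CPM. The groups overlap almost wholly, and the sign of the difference depended on the replicate number (lower in 3 of 5). The WT difference of -0.38 ± 0.68 had a 95% interval of -1.75 to 0.99 (edgeR test, adjusted p = 0.916). Over the mean of the 4 genotypes it was called with samples 2, 3 and 4 alone (-0.74, adjusted p = 0.0272).

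Counted by genotype, the members lower in the tumour were 6 in WT (0.361% of all genes were called lower and 0.873% in either direction), 4 in N (0.225% and 0.791%), 6 in HetNrp1def (0.307% and 0.654%) and 3 in HetWT (0.075% and 0.239%). No member was higher in any of them. Tcf7, Foxp1 and Id3 were the 3 called in all 4 genotypes. The counts in the heterozygous groups were the least steady: with 1 sample left out they were 2 to 4 in HetNrp1def and 0 to 2 in HetWT, whichever of the 8 samples of the contrast it was. In WT and N they stayed at 5 to 6 and 3 to 4. Within the samples numbered 2, 3 and 4 the counts were 6, 4, 5 and 3 (WT, N, HetNrp1def, HetWT), beside 362, 181, 133 and 110 of all 14785 genes tested there, where the fit to all samples called 128, 116, 96 and 35 of 14668. In the heterozygous tumour groups the sample numbered 4 includes the ds1 library. Within ds1 and ds2 alone 0 members were called in WT and N, where 2 and 3 genes of 14505 were called in all. The heterozygous tumour groups hold only ds2 in that fit, so no count is given for them or over the mean of the 4.

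The authors' deposited log2 table gave fewer calls. With limma on those values, 0, 1, 0 and 0 members passed in WT, N, HetNrp1def and HetWT, and 7 over the mean of the 4, beside 2, 180, 1, 3 and 934 of all genes in that table. The differences of the 6 genes called in WT from the counts were smaller there, from -2.17 for Id3 over -1.58 for Klf2, -1.50 for Bach2, -1.18 for Foxp1 and -0.91 for Tcf7 to -0.50 for Satb1. In HetNrp1def and HetWT the Id3 differences of -4.55 and -4.81 were near those from the counts. In WT tumour ds1 the table lists Tcf7 at 8.02 and Id3 at 9.16, where log2(CPM + 1) of the counts is 3.64 and 3.47. For WT tumour ds2 it lists Tcf7 at 9.01, against 6.58 from the counts, and that column as a whole had a Pearson r of 0.26 with the counts of its own library over genes (after subtracting each gene's mean over the libraries of that replicate number) and of 0.35 with those of the effector ds2 library. The other 44 columns matched their own library best, with r of 0.708 to 0.976. Without that column limma called 0 members in WT again.

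**Figure D2:**
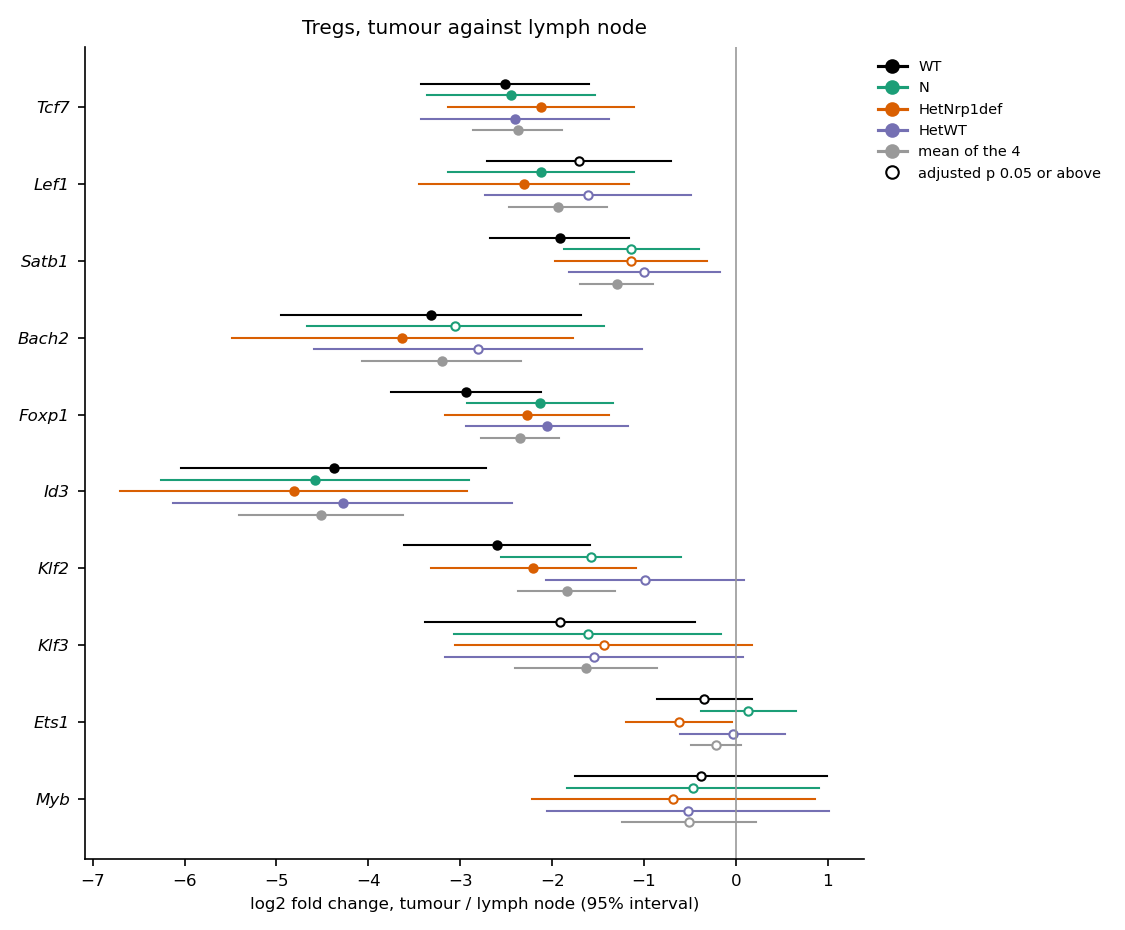
Log2 fold change of each gene, tumour over lymph node Tregs, in each genotype and over the mean of the 4, with 95% intervals from the edgeR fit; filled points passed an adjusted p of 0.05. The intervals of Tcf7, Lef1, Satb1, Bach2, Foxp1 and Id3 lie below 0 in all 4 genotypes, and the points of Tcf7, Foxp1 and Id3 are filled in all 4. The intervals of Ets1 and Myb over the mean of the 4 include 0.

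Markers of B cells differed between the tissues too. The summed CPM of 7 B cell markers was 1.90 to 666 in lymph node Tregs (median 188) and 3.85 to 65.6 in tumour Tregs (median 17.3), and 5 of the 7 fell over the mean of the 4 genotypes. The 5 melanoma markers summed to 0.317 to 71.6 CPM in lymph node Tregs and 3.34 to 3373 CPM in tumour Tregs, and all 5 rose over the mean of the 4 genotypes. Among them Dct had a median of 0.0700 CPM in lymph node Tregs and of 6.87 CPM in tumour Tregs, with a highest value of 1635 CPM, and Mlana had medians of 0 and 1.27 CPM. Of 4 dendritic cell markers 1 rose, Xcr1, and the list summed to 0 to 153 CPM in lymph node Tregs and 6.64 to 416 CPM in tumour Tregs. The 3 markers of natural killer (NK) cells summed to 0 to 834 CPM in lymph node Tregs (median 0.718) and 0 to 42.8 CPM in tumour Tregs (median 1.94). The 834 CPM came from a HetNrp1def sample, and 0 of the 2 NK markers tested passed over the mean of the 4 genotypes. The part of B cell, melanoma, dendritic cell and NK cell RNA in the differences of the 10 genes was not tested.

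The other genes around these factors were taken from lists, by count, and the lists too were chosen with earlier results known. Of 9 surface and homing genes of naive T cells, 6 fell and 0 rose in WT tumour Tregs, and the same counts held over the mean of the 4 genotypes. Among them Dapl1 had the lowest difference (-5.16 ± 1.18), followed by Igfbp4 (-4.88 ± 0.87) and Bcl2, a survival gene (-3.10 ± 0.51). Ccr7, which encodes a chemokine receptor for lymph node entry, went from 224 ± 52.1 to 28.0 ± 12.8 CPM (SD, n = 5 each; -3.00 ± 0.44, edgeR test, adjusted p = 1.35e-05). S1pr1, a known target of KLF2, fell as well (-2.37 ± 0.42).

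Of 10 factors of effector and tissue Tregs, 1 rose and 0 fell in WT tumour Tregs, and 6 rose over the mean of the 4. The 1 was Bhlhe40 (3.05 ± 0.76, edgeR test, adjusted p = 0.0325). Over the mean, Tbx21, which encodes T-bet, rose by 3.98 ± 0.52 and Prdm1, which encodes Blimp-1, by 3.17 ± 0.42 on the log2 scale. Of 15 partners and upstream factors, 1 fell in WT: Bcl11b, a T cell identity factor (-1.22 ± 0.31, adjusted p = 0.0392), and over the mean Foxo1, the activator of Klf2 and Il7r, fell too (-1.12 ± 0.18). The 16 paralogs of the members gave 1 rise in WT, that of Id2. Over the mean of the 4, Klf6 rose (1.52 ± 0.27) and Klf13 fell (-0.74 ± 0.25) beside it.

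The study's effector T cells allow a comparison within the tumour. Against them, WT tumour Tregs were lower in 8 of the 10 genes (1.61% of all genes were called lower, 4.1% higher and 5.71% in either direction). The differences were -4.40 ± 0.50 for Tcf7, -4.09 ± 0.84 for Bach2, -3.52 ± 0.42 for Foxp1, -3.31 ± 0.77 for Klf3, -3.30 ± 0.78 for Id3, -3.27 ± 0.40 for Satb1, -3.21 ± 0.53 for Lef1 and -2.55 ± 0.51 for Klf2, with adjusted p of at most 0.00454 by the edgeR test. Leaving out any 1 of the 10 samples kept the count at 8, although without tumour ds1 the Lef1 difference was -4.12 and without tumour ds2 the Id3 difference was -3.93. Samples 2, 3 and 4 alone gave 8 too, while ds1 and ds2 alone gave 1 and limma on the authors' deposited log2 table gave 0, with and without WT tumour ds2. Beside this, 4 of 5 melanoma markers and 1 of 4 dendritic cell markers (Xcr1) were higher in WT tumour Tregs than in effector cells, with 6.58 to 3373 against 2.92 to 74.7 CPM for the melanoma list and 10.6 to 157 against 0 to 7.66 CPM for the dendritic list. Their part in the result was not tested.

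Effector cells were the highest group of the study for 6 of the 10 genes by mean: Tcf7, Lef1, Satb1, Bach2, Foxp1 and Klf3. They had 905.5, 1178, 1357, 863 and 502 CPM of Tcf7 and 1083, 1370.1, 2792, 595 and 1326 CPM of Lef1. Satb1 was the most even, with 899, 997, 812, 986 and 854 CPM. All 18 tumour Treg samples lay below all 5 effector samples for 7 genes (all but Klf2, Ets1 and Myb), as 1.15% of all genes did.

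For Id3 the effector cells lay between the Treg groups. They had 88.3, 63.2, 81.1, 274 and 118 CPM, above every tumour Treg sample, while the WT lymph node Tregs of 137 to 523 CPM overlapped them. Bach2 stood at 203, 189, 159, 226 and 270.3 CPM and Foxp1 at 509, 669, 1151, 466 and 641 CPM. Klf2 (428, 449, 735, 246 and 402 CPM) was at the level of lymph node Tregs, and Klf3 (80.6, 67.9, 292, 135 and 70.2 CPM) reached above all lymph node Treg samples in ds1 and ds2 only.

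Lymph node WT Tregs differed from the effector cells in 2 of the 10 genes, both lower (0.102% of all genes were called lower, 1.69% higher and 1.79% in either direction). Tcf7 was 3.71-fold lower (-1.89 ± 0.45, edgeR test, adjusted p = 0.00909) and Satb1 2.56-fold lower (-1.36 ± 0.37, adjusted p = 0.0356). For both genes all 18 lymph node Treg samples lay below all 5 effector samples, as 0.177% of all genes did. The Satb1 call did not survive the loss of any sample but WT lymph node 2 or effector ds1 (adjusted p 0.0537 to 0.102 without one of the other 8), and without all ds2 samples neither gene was called. Lef1, at -1.50 ± 0.50, missed the threshold (adjusted p = 0.137), and was called with ds1 left out (-1.38, adjusted p = 0.0297) or with the replicate block. Id3 had the most positive value, 1.08 ± 0.72 (95% interval -0.37 to 2.53, adjusted p = 0.747), and was higher in lymph node Tregs within all 5 replicate numbers.

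Lists of other genes moved in this comparison as well. WT tumour Tregs were lower than effector cells in 7 of the 9 naive surface and homing genes and higher in 5 of the 10 effector factors, and WT lymph node Tregs were lower in 2 and higher in 4. Il7r, the receptor chain for interleukin-7, was lower in both (-2.27 ± 0.45 and -1.89 ± 0.45). Gata3 was higher in both (1.36 ± 0.41 and 1.70 ± 0.41). The effector libraries had medians of 1.92 CPM for Cd8a, 24.6 for Cd8b1 and 562 for Cd4, while these were 9.94, 63.3 and 278 CPM in lymph node Tregs and 33.0, 58.8 and 432 CPM in tumour Tregs.

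**Figure D3:**
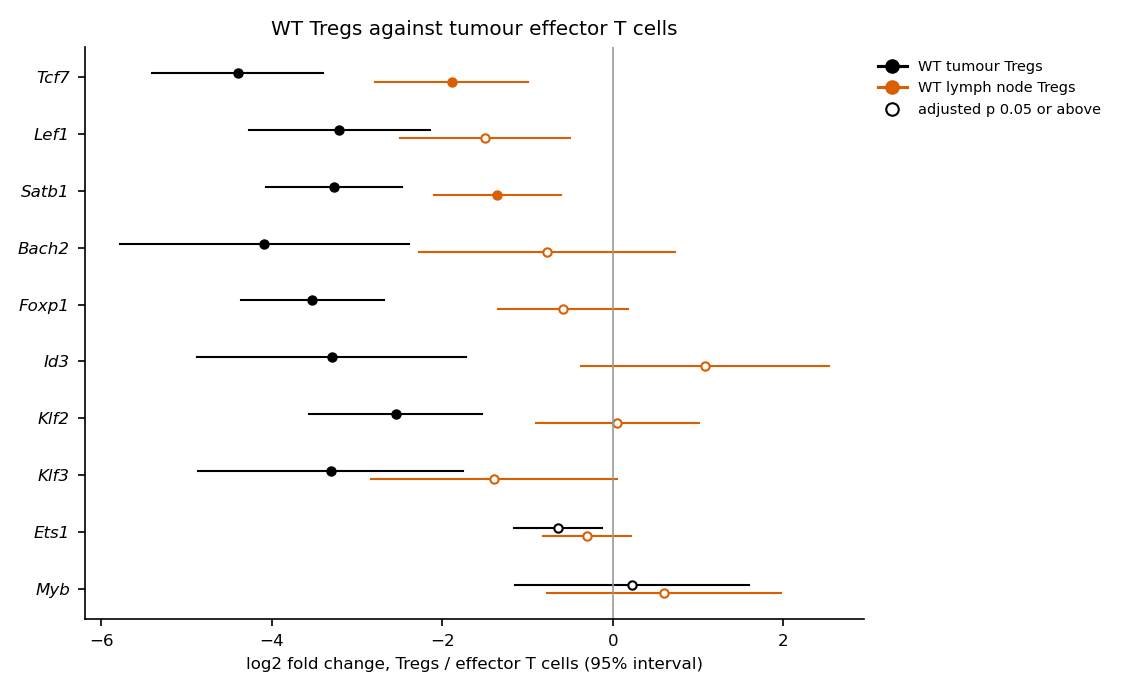
Log2 fold change of each gene in WT tumour Tregs (black) and WT lymph node Tregs (orange) over tumour effector T cells, with 95% intervals from the edgeR fit; filled points passed an adjusted p of 0.05. In tumour Tregs 8 of the 10 genes are lower and in lymph node Tregs Tcf7 and Satb1 are. The 2 sets of values share the 5 effector samples.

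The design also asks whether loss of Nrp1 changes these factors. In the 4 comparisons of Nrp1-deficient with sufficient Tregs (N with WT and HetNrp1def with HetWT, in tumour and lymph node) 0 of the 10 genes passed the edgeR test, where 0% of all genes did. No member had an unadjusted p below 0.05 there, and DESeq2 called 0 members among 4 to 254 genes. Over all genes, 291 to 952 had an unadjusted p below 0.05. The other 4 comparisons of genotypes, which set the heterozygous groups against WT, gave 0 called members too. There 1 member, Foxp1 in HetWT against WT tumour Tregs, had an unadjusted p below 0.05 (0.87 ± 0.40, adjusted p = 1). Its HetWT tumour level was 229 CPM in replicate 2 and 56.5 to 81.9 CPM in the other samples of that group.

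The intervals say what sizes these comparisons could hold. For N against WT in the tumour the 95% interval ran from -0.85 to 0.89 for Tcf7, from -0.24 to 1.29 for Foxp1, from -0.18 to 1.28 for Satb1 and from -1.95 to 0.98 for Id3. The Id3 interval is the widest of these 4. Over the 10 genes, half-widths were 0.52 for Ets1 at the narrowest and 1.50 for Bach2 at the widest. HetNrp1def against HetWT in the tumour gave 0.77 ± 0.49 for Tcf7 (interval -0.21 to 1.74), the most positive of the 10, and -0.76 ± 0.84 for Bach2, the most negative. In WT tumour Tregs Tcf7 was 14.1 to 80.2 CPM, in N 2.86 to 70.6, in HetNrp1def 47.4 to 96.9 and in HetWT 18.5 to 61.3, and these ranges overlap throughout. Of all member comparisons of genotypes, 1 had ranges apart: Foxp1 was 81.1 to 122 CPM in HetNrp1def and 39.7 to 69.4 CPM in WT tumour Tregs (0.68 ± 0.40, adjusted p = 1), where 0.457% of all genes were higher without overlap.

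Whether the drop from lymph node to tumour differs between genotypes was tested as an interaction. In 4 such tests 0 members and 0 genes passed, and 1 member had an unadjusted p below 0.05: Klf2 in HetWT against WT (1.61 ± 0.72, adjusted p = 1, with DESeq2 calling 25 genes and 0 members). Klf2 stood apart in HetWT tumour 2 (379 CPM) and in WT lymph node 3 (1119 CPM). Without the first the HetWT tissue difference was -1.86, and without the second the WT tissue difference was -1.96. For Tcf7 the interactions were 0.07 ± 0.61 (N against WT), 0.39 ± 0.65 (HetNrp1def against WT) and 0.11 ± 0.65 (HetWT against WT). For Id3 they were -0.20 ± 1.01, -0.43 ± 1.08 and 0.10 ± 1.08. These 3 tests share the WT samples.

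**Figure D4:**
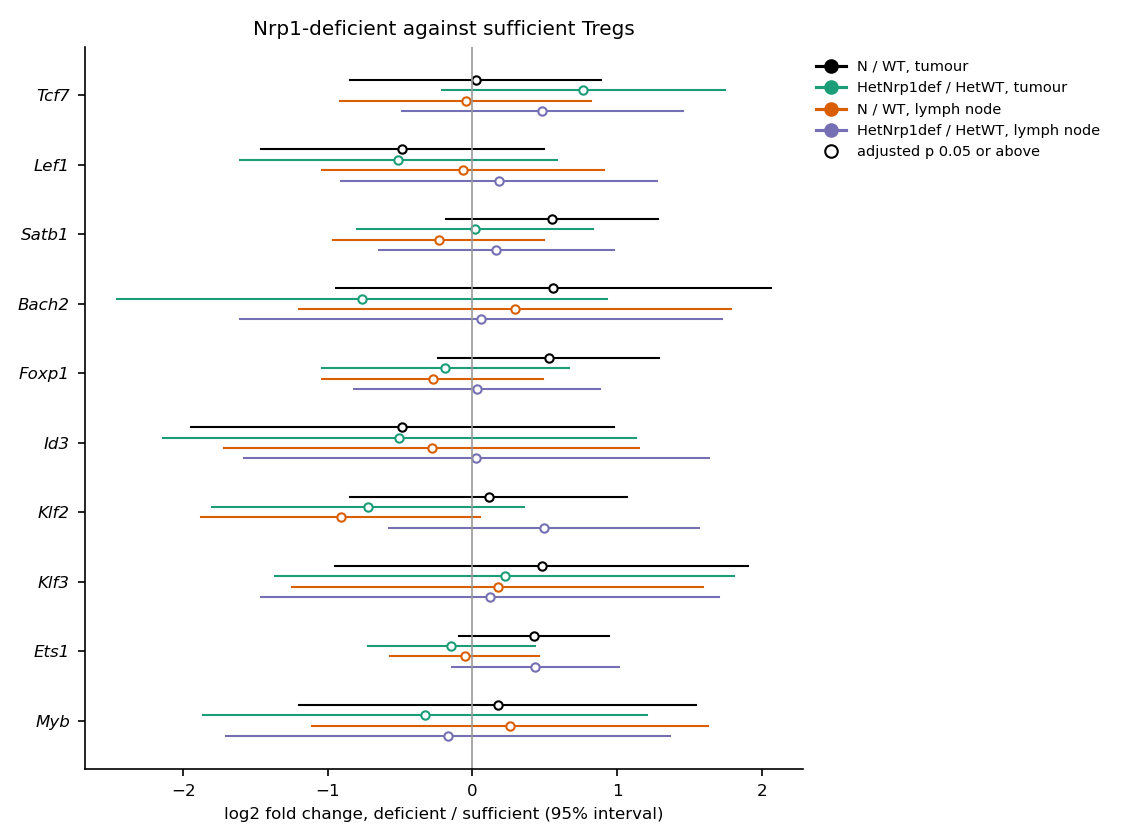
Log2 fold change of each gene, Nrp1-deficient over sufficient Tregs, for N over WT and HetNrp1def over HetWT in tumour and lymph node, with 95% intervals from the edgeR fit. All points are open, because none passed an adjusted p of 0.05, and all intervals include 0.

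The order of the group means was set by tissue and cell type for most of the genes. For Tcf7, Satb1, Bach2, Lef1, Foxp1 and Klf3 it ran from effector cells over the 4 lymph node groups to the 4 tumour Treg groups, and for Id3 the 4 lymph node groups led, followed by effector cells. Neighbours in this order mostly did not differ beyond their ranges: 6 of the 8 neighbouring pairs overlapped for Tcf7 and Satb1, 7 of 8 for Foxp1 and Id3, and 8 of 8 for the other 6 genes. For Klf2 the effector cells stood between the WT and the other lymph node groups. For Myb the 4 lymph node groups led and the effector cells stood among the tumour groups, and for Ets1 the tissues were mixed in the order. Groups held 86.6% of the variance of log2 CPM for Foxp1, 82.3% for Tcf7, 81.2% for Id3, 77.3% for Satb1, 75.5% for Lef1, 68.9% for Klf2, 65.9% for Bach2, 52.2% for Klf3, 38.1% for Ets1 and 13.7% for Myb. With 9 groups in 41 samples, groups hold part of the variance even where none differs, and that part was not subtracted.

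Per length, the order of the genes changed between the cells. In CPM per kilobase of annotated exon, the median over lymph node Tregs was highest for Klf2 (170.0), then Tcf7 (104), Id3 (103) and Ets1 (95.2), and lowest for Klf3 (5.46). In tumour Tregs Ets1 led (88.1), before Klf2 (44.4) and Tcf7 (19.4), while Id3 stood at 3.31 and Bach2 at 1.32. In effector cells Tcf7 led at 345, before Klf2 at 232 and Lef1 at 151. These levels assume that reads cover all annotated exons. Exons of 6 of the 10 genes (Lef1, Satb1, Bach2, Foxp1, Klf3 and Myb) overlap those of another annotated gene, and since the strand setting of the counting is not stated, reads of the overlapping genes cannot be told apart.

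Samples with the same replicate number deviated together in several of the genes. The ds2 sample lay above its group mean in 9 of 9 groups for Id3, by 1.55 ± 0.68 on the log2 scale (SD, n = 9), and in 9 of 9 for Klf3 (1.09 ± 0.59). For Myb it lay below the mean in 9 of 9 groups (-1.28 ± 0.54), while ds1 lay above in 7 of 7 (1.44 ± 0.94). Lef1 behaved like Myb, with ds1 above in 7 of 7 groups (1.14 ± 0.50) and ds2 above in 1 of 9 (-0.69 ± 0.45). Bach2 was lowest in ds1 (-1.39 ± 1.79) and highest in replicate 2 (0.97 ± 0.75, above in 8 of 9).

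These deviations crossed tissue and cell type. Id3 in ds2 was 523 CPM in WT lymph node, 31.2 in WT tumour and 274 in effector cells, against 137 to 347, 4.76 to 12.4 and 63.2 to 118 CPM in the other 4 samples of each group. The ds2 libraries were the shallowest and the ds1 and ds2 samples are read as double sorted. TMM factors of ds1 were 0.780 in WT lymph node, 0.820 in WT tumour and 0.686 in effector cells, against 1.20, 1.18 and 1.19 for ds2. WT lymph node 3 was low too (0.797). The part of depth, sorting or library make-up in these deviations was not tested. Within each replicate number the WT tumour sample was below the WT lymph node sample in 5 of 5 for 9 of the genes, and in 3 of 5 for Myb. The smallest of these within-number differences were -3.60 for Id3, -2.02 for Foxp1, -1.78 for Tcf7, -1.69 for Bach2 and -1.52 for Satb1 (log2 CPM). They were -1.12 for Klf3, -1.03 for Klf2, -0.91 for Lef1 and -0.10 for Ets1.

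**Figure D5:**
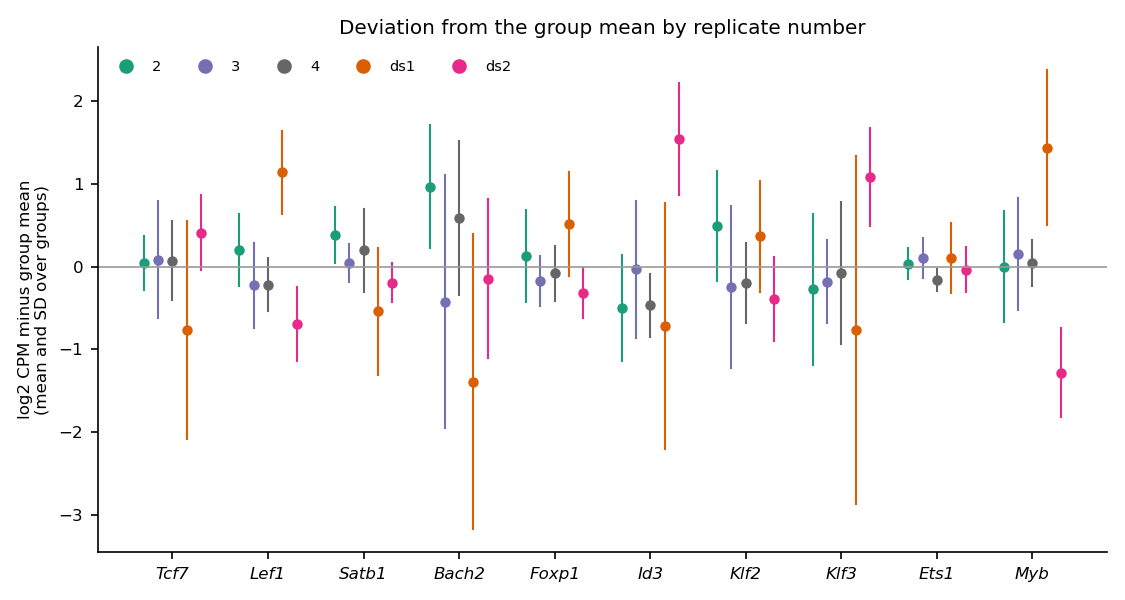
Deviation of log2 CPM from the group mean for each gene and replicate number; points are means over the groups that hold the number and bars are SDs. Id3 and Klf3 are raised in ds2, and Myb and Lef1 are raised in ds1 and lowered in ds2.

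Across the 41 samples the 10 genes mostly varied together, by way of the group differences they share. The 45 pairs had a median Pearson r of 0.60 over log2 CPM (from -0.26 to 0.86). Within groups the median was -0.03 (from -0.60 to 0.79). Satb1 and Bach2 kept the closest relation within groups (0.79, and 0.86 over all samples), and Lef1 with Foxp1 and Klf2 with Foxp1 had 0.86 each over all samples and 0.50 and 0.51 within groups. These are descriptions, since the samples share their groups and replicate numbers.

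Other genes with the most similar profile were sought among all genes tested, up to 3 for each member, by Pearson r over the 41 samples. For Tcf7 they were S1pr1 (0.89), Trib2 (0.88) and Pdlim1 (0.88), and for Foxp1 Bcl11b (0.93), Ccr7 (0.92) and Il6ra (0.91). Klf2 was most like Add3 (0.87), Bcl11b (0.84) and Foxo1 (0.83). Satb1 (Mylip 0.87, Dapl1 0.83, Ly6c1 0.81) and Bach2 (Ly6c1 0.84, Igfbp4 0.82, Mylip 0.79) shared Mylip and Ly6c1. Id3 was most like Cd96 (0.87), Ift80 (0.87) and Bcl2 (0.85), and Klf3 like Smarca2 (0.86), Prkcq (0.84) and 4930523C07Rik (0.84). Ets1, with the flattest profile, reached 0.72 at most (Kdm6b), followed by Rere and Mum1 (0.68 each).

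Lef1 was most like Atp1b3 (0.90), and Myb like Nap1l1 (0.85), Sfpq (0.84) and Ptma (0.84). For Myb these relations were as close within groups (0.86, 0.91 and 0.86), and for Lef1 and Atp1b3 nearly so (0.86). For Foxp1 and Ccr7 the r within groups was 0.36.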

How the data were processed

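RNA of sorted T cells was sequenced with a SMARTer and Nextera XT preparation, per the labels' protocols. The submitters' processing notes name STAR, featureCounts, limma and mm10, with versions, annotation and strand setting not given in the sources used here. The authors deposited whole-number read counts per gene for 45 libraries, and a table of normalized log2 values for 10832 genes that holds all 10 members. The members and gene lists were chosen with earlier results of these data known.

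Libraries of a group were compared by a chi-square test of their counts, and pairs under 5 per degree of freedom, a limit chosen with earlier values of these libraries known, were summed. CPM divided counts by the library size over tested genes times its TMM factor. Tests used edgeR 4.0.16 (TMM, filterByExpr by group, robust quasi-likelihood, 41 samples in 9 groups, 32 residual degrees of freedom, Benjamini-Hochberg over 14668 genes within each of 19 contrasts, of which 4 were interactions, adjusted p below 0.05) in R 4.3.3. SEs were taken from the F statistic. Deviations and correlations used log2 CPM with a prior count of 2. Alternatives used DESeq2 1.42.0, limma 3.58.1 on the authors' log2 values, other filters and scalings, a replicate block and samples left out. Named genes are the 10 members in all contrasts, called genes of the lists and the 3 genes most like each member, some of which are not reported here. Promoter windows and motifs came from RefSeq (GRCm38.p6) after the sequences were seen, and 9 of 10 members had an entry. Coordinates are from GENCODE vM21 on mm10. The fitting script was tested on simulated data. Same-numbered samples deviated together in every pair (r above 0.1) in 3 of the 14 contrasts checked, where the labels give no shared animal or day.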

Additional observations from a re-analysis of the deposited data

Results flagged for a closer look

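In 18 of the 90 sets of 1 gene in 1 group, 1 sample lay far from the others by Dixon's test. The test flags about 1 of 20 sets of normally distributed values. It was run here on CPM rather than log2 CPM, so the 18 of 90 cannot be set against that rate. The flagged sample was the highest each time: ds1 in 8, ds2 in 6, replicate 2 in 2, replicate 3 in 2 and replicate 4 in 0.

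Among the ds1 samples, Lef1 had 452 CPM in WT tumour Tregs (others 59.9 to 106) and 237 in N tumour Tregs (71.0 to 89.4). Foxp1 had 824 in WT lymph node Tregs (281 to 427) and 881 in HetWT lymph node Tregs (282 to 342). Ets1 had 1325 in N tumour Tregs (742 to 872). Myb had 340.1 in N lymph node Tregs (54.1 to 89.9), 308 in N tumour Tregs (15.8 to 57.3) and 223 in effector cells (16.9 to 44.6).

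Among the ds2 samples, Id3 had 525 CPM in N lymph node Tregs (others 94.8 to 201), 31.2 in WT tumour Tregs (4.76 to 12.4), 45.5 in HetWT tumour Tregs (2.06 to 4.37) and 274 in effector cells (63.2 to 118). Klf3 had 95.7 in WT lymph node Tregs (29.0 to 46.4) and 56.8 in HetNrp1def tumour Tregs (16.1 to 16.5).

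Replicate 2 of HetWT tumour Tregs had 247 CPM of Satb1 (others 110 to 129) and 229 of Foxp1 (56.5 to 81.9). Replicate 3 of WT lymph node Tregs had 1119 CPM of Klf2 (213 to 363) and 1241 of Ets1 (688 to 787).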

How the results depend on the processing

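Counts of the 10 genes called by the edgeR test were recomputed under each alternative, and the cause of each change was not tested. With samples ds1 and ds2 only, the counts were 0 in WT and N tumour against lymph node, with fewer samples in each fit. Against effector cells they were 1 for WT tumour Tregs and 0 for WT lymph node Tregs. The heterozygous tumour groups hold only ds2 in that fit, so no count is given for them or over the mean of the 4 genotypes. With limma on the authors' log2 values they were 0, 1, 0, 0 (the 4 genotypes), and 0 and 0 against effector cells, and without WT tumour ds2 (an alternative chosen after seeing the data, like leaving out all ds1 or ds2 samples) 0 in WT and 0 against effector cells. The fit on the samples of the contrast only gave 1 in HetNrp1def and 0 in HetWT. No filter gave 3 in HetNrp1def, 1 in HetWT and 1 for WT lymph node Tregs against effector cells. Leaving out ds2 gave 3, 1 and 0 there, and samples 2, 3 and 4 only gave 4 in the last.

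Leaving out 1 sample, WT gave 5 to 6, N gave 3 to 4, HetNrp1def gave 2 to 4 and HetWT gave 0 to 2, with 8 to 8 over the mean, 8 to 8 and 1 to 2 against effector cells, and 0 to 0 in the 8 comparisons and 4 interactions of genotypes. The replicate block gave 7 in N, 7 in WT, 6 in HetNrp1def, 3 in HetWT, 8 over the mean, 9 and 3 against effector cells, and 0 in all comparisons of genotypes. In N it added Satb1 (-1.21, edgeR adjusted p = 0.0174), Bach2 (-3.31, 0.0127) and Klf2 (-1.66, 0.031), in WT Lef1 (-1.95, 2.66e-05), and in WT tumour Tregs against effector cells Ets1 (-0.65, 0.0311), and in WT lymph node Tregs against them Lef1 (-1.47, 0.00136). Over all genes, the WT tissue contrast called 128, against 382 with the replicate block and 486 with DESeq2. N called 116 (313 and 407), HetNrp1def 96 (190 and 777), HetWT 35 (93 and 281), WT tumour Tregs against effector cells 838 (1284 and 1574) and WT lymph node Tregs against them 263 (598 with DESeq2).

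Signs turned only for values that had not passed the test, with 1 exception. Id3 in WT tumour Tregs against effector cells was 0.16 with limma on the authors' log2 values. Tumour against lymph node, Myb was 0.47 in WT with ds1 and ds2 only, and 0.0708 and 0.0393 in HetWT with the replicate block and with limma. With 1 sample left out, Myb was -1.07 to 0.17 in WT (above 0 without lymph node 3) and -1.73 to 0.31 in N (above 0 without lymph node ds1). Ets1 in N was -0.0585 with samples 2, 3 and 4 only and -0.0190 without all ds1, and -0.0371 to 0.20 with 1 sample left out (below 0 without tumour ds1). In HetWT Ets1 was 0.0547 with no filter, 0.0151 with limma and 0.61 with ds1 and ds2 only, where the tumour group holds only ds2. It was -0.0916 to 0.26 in HetWT with 1 sample left out (above 0 without lymph node 2, ds2 or 4 or tumour 2 or 4). Over the mean Ets1 was 0.0123 with ds1 and ds2 only, where the heterozygous tumour groups hold only ds2. Against effector cells, Myb in WT tumour Tregs was -0.13 with ds1 and ds2 only, and -0.44 to 1.37 with 1 sample left out (below 0 without effector ds2 or tumour ds1). In WT lymph node Tregs Bach2 was 0.91 and Foxp1 0.33 with limma, and Myb -0.60 with ds1 and ds2 only. Klf2 there was -0.0040 with no filter and -0.42 with ds1 and ds2 only, and -0.59 to 0.32 with 1 sample left out (below 0 without effector ds2 or 4 or lymph node 3).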
